A study of Homo sapiens
Mus musculus with 5 samples.

Results

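Axon guidance genes encode secreted and membrane-bound cues and the receptors that read them, and the ligands and receptors studied here are the semaphorins with their plexins and neuropilins, the ephrins with the EPH receptors, the slits with the ROBO receptors, and the netrins with the UNC5 receptors and DCC. They were taken from 2 expression tables by gene symbol, which gave 69 of 25524 human genes and 69 of 24628 mouse genes, 138 of 50152 in all. H2030-BrM3 is a brain-tropic derivative of a human lung adenocarcinoma line. The mice were athymic nu/nu and so without a thymus, and the cells grew in them as brain tumors (3 libraries) and as orthotopic lung tumors after intratracheal injection of 100000 cells (2 libraries). All 5 tumors share the cell line and the strain, and the labels give neither the route of the brain tumors, nor the age of the mice, nor whether tumors of different mice were pooled. Human values were read as those of the cancer cells and mouse values as those of the host, and the study compared the same cells in both organs together with the host tissue around them.

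Semaphorins steer growth cones mostly by repulsion: the secreted class 3 members bind neuropilins that signal through plexins, and most other classes bind plexins directly. Ephrins are tethered to the cell surface, A types by a lipid anchor and B types by a transmembrane segment, so that EPH receptors read them at cell contacts and signal can pass both ways. Slits repel through ROBO receptors, while netrins attract through DCC and repel through UNC5 receptors. In the adult brain these genes remain in use at synapses and in myelin, and outside it they act in vessel growth, lung branching and carcinoma cell migration.

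Levels are given as the deposited RPKM, a read number divided by gene length and by the depth of the library in the same species. Recovered whole reads numbered 2445904 to 8419288 human and 231156 to 8636094 mouse reads per library. The lowest mouse depth was that of lung tumor 1, in which 96.6% of reads were human, against 41.4% in lung tumor 2 and 22.1% to 75.6% in the brain tumors. Neuron, astrocyte and oligodendrocyte markers of the host followed the labelled organs. Of them 9 of 9, 6 of 6 and 8 of 8 were higher in the brain tumors. Summed neuron markers stood at 2338 to 3112 RPKM there, against 46.1 and 63.0 in the lung tumors. Microglia markers were less clear, as 1 of 5, Sall1, was called higher. The fitted differences of 4 were above 0, and that of Tmem119 was -1.52 (log2). Of 7 tested alveolar and airway markers 5 were lower in the brain tumors, and their sum over all 8 listed was 25.4 to 71.0 RPKM there, 957 in lung tumor 1 and 65490 in lung tumor 2. Fibroblast and mural markers (6 of 8 lower in brain) summed to 17300 and 9748 RPKM in the lung tumors against 261 to 1043. In such bulk libraries fewer cells of a type and less RNA per cell cannot be told apart. Nothing in the labels says whether tumors came from separate mice, so p-values measure the spread between these libraries.

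In the host, guidance genes differed between brain and lung tumors in both directions. Of the 69 mouse genes 67 passed the filter (RPKM of at least 1 in at least 2 libraries). Genes under 1 RPKM in both lung tumors passed it through the brain tumors alone. Among them were Unc5a, Efnb3, Slit1, Epha5, Epha6, Epha10, Ephb1, Unc5d, Plxnb3 and Dcc. Their separation was thus set in part by the filter. By limma with Benjamini-Hochberg adjustment over all tested mouse genes, 17 were higher in the brain tumors (25.4%, against 14.3% of the 15431 genes tested) and 8 were lower (11.9%, against 8.12%). The median difference over the 67 genes was 0.86 on the log2(RPKM + 1) scale, against 0.08 over all tested mouse genes. Brain and lung values did not overlap for 47 genes, 29 of them above and 18 below the lung tumors (70.2%, against 56.1% of all tested genes). An unadjusted p under 0.05 was found for 38 of the 67, against 38.5% of all tested genes. Lung tumor 1 weighed on these counts. Without it 19 were higher and 22 lower, and without lung tumor 2 the counts were 36 and 8. Leaving out brain tumor 1, 2 or 3 gave 15, 10 and 13 calls in all. A correction for gene length gave 16 higher and 15 lower, and voom on the recovered reads 20 and 16. The shares over all tested genes in these alternatives are not given, so 14.3% and 8.12% are no measure for them.

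The neuron, astrocyte and oligodendrocyte markers moved with the 17 higher genes, and the alveolar, fibroblast and blood cell markers with the 8 lower ones; their part in these differences was not tested. Of 6 tested blood and immune markers 4 were lower in the brain tumors, and the 8 listed summed to 67.6 to 596 RPKM there against 8023 and 6397. Among the brain markers Rbfox3, Mag, Olig2, Sox10 and the microglial Sall1 were at 0 in lung tumor 1, and Mog and Olig2 in lung tumor 2. The alveolar marker Sftpd was also at 0 in lung tumor 1, as were the lymphocyte markers Cd3e and Cd79a. Scgb3a2 was at 0 in brain tumor 2, Cd3e in all 3 brain tumors and Cd79a in brain tumor 1.

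**Figure D1:**
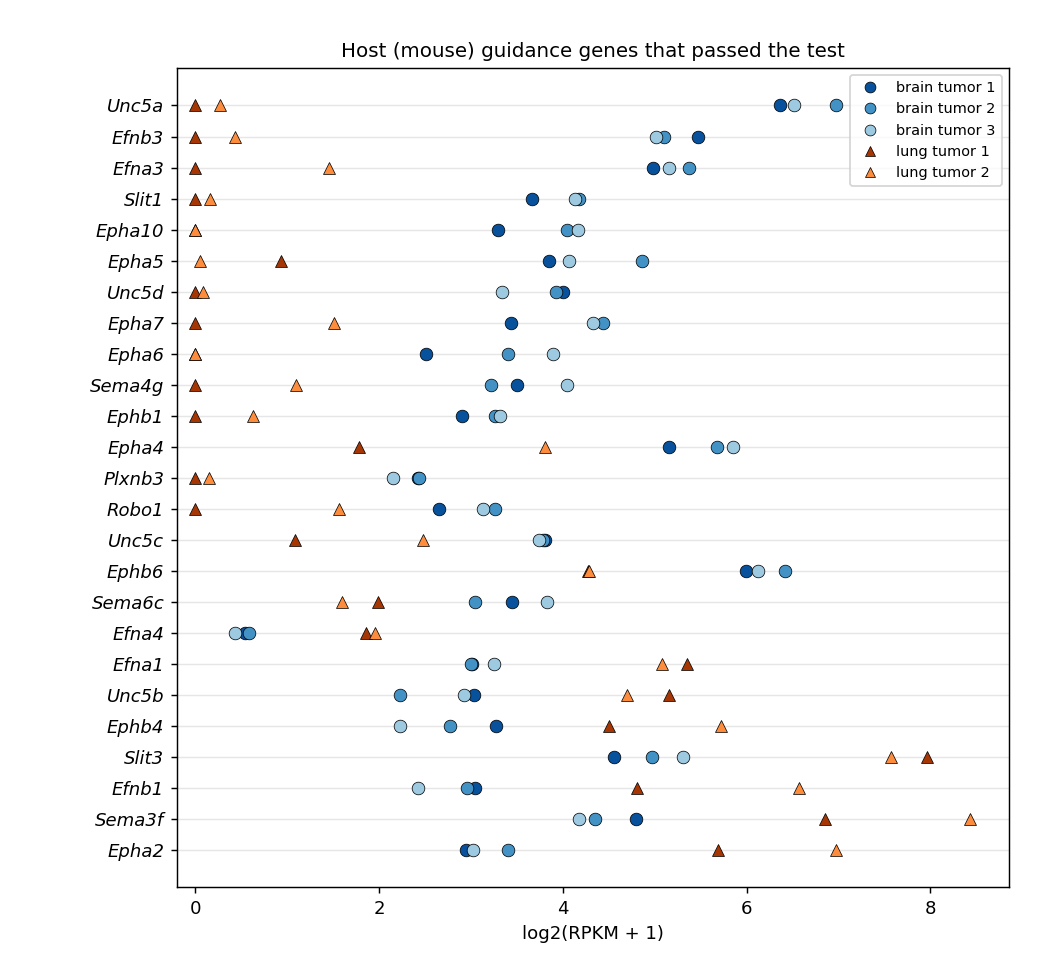
Host (mouse) guidance genes with an adjusted p under 0.05 in limma, ordered by their difference. The horizontal axis is log2(RPKM + 1), each circle is 1 of 3 brain tumors and each triangle 1 of 2 lung tumors; the 17 genes at the top lie higher in all brain tumors and the 8 at the bottom lower.

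Among host ligands the ephrins split by member. Efnb3, a transmembrane ephrin found on myelin and in midline tissue, had 43.4, 33.3 and 31.4 RPKM in brain tumors 1, 2 and 3, against 0 and 0.349 in lung tumors 1 and 2. Efna3, a lipid-anchored ephrin that binds EPHA receptors, stood at 30.6, 40.5 and 34.5 RPKM against 0 and 1.74. All brain values of both genes lay far above both lung values, and the log2 differences were 4.98 ± 0.39 (SE, adjusted p = 0.00141) and 4.44 ± 0.53 (adjusted p = 0.00393). Efnb1 moved the other way, with 7.27, 6.76 and 4.35 RPKM against 27.0 and 93.9 (-2.88 ± 0.60, adjusted p = 0.0220). Efna1, the main ligand of EPHA2 in epithelia, had 7.06, 6.99 and 8.50 RPKM in brain against 39.9 and 32.9 in lung (-2.13 ± 0.34, adjusted p = 0.00970). Efna4 was low throughout, at 0.354 to 0.498 RPKM in brain and 2.64 and 2.89 in lung (-1.39 ± 0.36, adjusted p = 0.0410), and its lung tumor 1 value rested on 1 recovered read. Efnb2, an arterial ephrin and the highest B type by mean RPKM, had 16.4, 26.0 and 11.4 RPKM in the brain tumors against 25.4 and 116. Its brain tumor 2 value lay above that of lung tumor 1, and the adjusted p was 0.148. The Efnb1 call was lost without brain tumor 1, 2 or 3 (adjusted p = 0.0735 to 0.0961), that of Efna1 without brain tumor 1 or 2 (0.0551 and 0.0668), and that of Efna4 without any brain tumor (0.105 to 0.118). Without lung tumor 1 the Efnb2 difference was -2.70.

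The slits split as well. Slit1, a neuronal repellent, read 11.7, 17.1 and 16.5 RPKM in the brain tumors, 0 in lung tumor 1 and 0.122 in lung tumor 2. Slit3, which is expressed in mesenchyme and lung, had 22.5, 30.4 and 38.7 RPKM in brain against 248 and 188 in lung. The groups did not overlap for either gene, and the differences were 3.91 ± 0.41 (adjusted p = 0.00271) and -2.82 ± 0.35 (adjusted p = 0.00422). Slit2 had 11.7, 9.91 and 7.91 RPKM in brain and lay between its lung values of 0 and 33.98 (adjusted p = 0.689). Slit3 was 1 of 8 lower genes, and it moved with the fibroblast and mural markers given above; the part of those cells in its level was not tested.

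Of the 20 host semaphorins 2 passed as higher and 1 as lower. Sema4g, a transmembrane class 4 semaphorin, was measured at 10.3, 8.32 and 15.6 RPKM in brain tumors 1, 2 and 3, and at 0 and 1.14 in the lung tumors (3.04 ± 0.52, adjusted p = 0.0123). Its call was lost without any 1 brain tumor (adjusted p = 0.0528 to 0.0600). The other gene that rose was Sema6c (1.65 ± 0.44, adjusted p = 0.0446), named after its value was seen, and without any 1 brain tumor its adjusted p was 0.118 to 0.144. Sema3f, a secreted ligand of NRP2 with a known role in lung, had 26.8, 19.4 and 17.1 RPKM in brain against 115 and 344 in lung (-3.20 ± 0.52, adjusted p = 0.0107). Without brain tumor 2 or 3 its adjusted p was 0.0575 and 0.0630. Sema3c separated the lung tumors from each other: brain values were 17.9, 22.5 and 18.4 RPKM, with 10.9 in lung tumor 1 and 510 in lung tumor 2, so no direction can be given (adjusted p = 0.378). Alveolar and airway markers showed the same order of the lung tumors, and their part in it was not tested. Without lung tumor 1 the Sema3c difference was -4.64, and without lung tumor 2 it was 0.79. Sema4d is made by oligodendrocytes and lymphocytes and signals through PLXNB1. It had 145, 143 and 97.7 RPKM in brain against 15.3 and 89.3 (adjusted p = 0.138). Without lung tumor 2 its difference was 2.97.

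None of the 3 tested netrins was called. Ntn4, a laminin-like netrin of basement membranes, had 10.2, 10.2 and 8.58 RPKM in brain against 13.96 and 75.9 in lung (adjusted p = 0.140). Ntn1, the classical attractant, had 7.16, 5.83 and 7.21 RPKM in brain, between lung values of 0 and 22.7. For both genes lung tumor 2 was the highest library. Without lung tumor 1 the Ntn4 difference was -2.86.

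The receptor family with the most calls was that of the A-type EPH receptors, in which 5 of 8 tested genes were higher in the brain tumors and 1 was lower. Epha5, a receptor of forebrain neurons, had 13.4, 28.0 and 15.8 RPKM in brain against 0.915 and 0.0401 in lung (3.76 ± 0.52, adjusted p = 0.00619). Epha7, another neuronal receptor, stood at 9.84, 20.7 and 19.1 RPKM against 0 and 1.85 (3.32 ± 0.62, adjusted p = 0.0158). Epha4, which binds A and B ephrins and acts in neurons and astrocytes, was the highest of the 5, with 34.6, 50.3 and 56.6 RPKM against 2.43 and 13.0 (2.77 ± 0.65, adjusted p = 0.0313). For all 3 genes each brain tumor exceeded each lung tumor. Epha10 was measured at 8.78, 15.5 and 17.0 RPKM in brain, and Epha6 at 4.71, 9.54 and 13.8, while both were listed at 0 in both lung tumors. Set against a floor of 3 reads over the lung group, Epha10 was at least 65.8-fold higher and Epha6 at least 4.04-fold higher. That floor rests mainly on lung tumor 2, which had 5295159 mouse reads against 231156 in lung tumor 1. In lung tumor 1 alone 3 reads correspond to 4.97 RPKM for Epha10 and 55.1 for Epha6, so these folds do not hold for it. The adjusted p were 0.00378 for Epha10 and 0.0101 for Epha6. Epha6 rested on 3, 11 and 28 recovered reads in the brain tumors, and with voom its adjusted p was 0.130. The call of Epha4 was lost without any 1 brain tumor (0.0848 to 0.130), that of Epha7 without brain tumor 2 or 3 (0.0790 and 0.0804), and that of Epha6 without brain tumor 2 (0.0531).

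Epha2, an epithelial receptor often high in carcinomas, was the A-type receptor that fell, from 50.6 and 125 RPKM in the lung tumors to 6.73, 9.55 and 7.10 in the brain tumors (-3.21 ± 0.47, adjusted p = 0.00771). Its adjusted p was 0.0503 without brain tumor 3. The mouse value of lung tumor 1 came from 9 reads, beside 812 human EPHA2 reads in that library, and that of lung tumor 2 from 506 mouse reads beside 1545 human reads. How many mouse reads came from human RNA was not tested.

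B-type receptors showed a like division. Ephb1, a neuronal receptor of B ephrins, read 6.504, 8.59 and 8.98 RPKM in brain against 0 and 0.541 (2.85 ± 0.43, adjusted p = 0.00801). Ephb6, which lacks kinase activity, had 62.7, 84.3 and 68.5 RPKM in brain against 18.3 and 18.5 (1.897 ± 0.29, adjusted p = 0.00899, and 0.0668 without brain tumor 2). Ephb4, the venous receptor of ephrin B2, was lower in brain at 8.70, 5.83 and 3.70 RPKM against 21.6 and 51.8 (-2.35 ± 0.54, adjusted p = 0.0302). Its call was lost without any 1 brain tumor (0.0710 to 0.114). Endothelial markers gave 0 of 6 calls by limma, with 1 at an unadjusted p under 0.05, and their sum was 87.2 to 183 RPKM in brain, 112 in lung tumor 1 and 1416 in lung tumor 2. The fitted differences of all 6 were below 0. In lung tumor 1 Tie1 (14.4 RPKM) and Pecam1 (36.6) were, like Ephb4, above all 3 brain tumors. Cldn5 (17.9) was below all 3 there, and Cdh5 (29.1), Kdr (8.38) and Tek (5.80) lay between brain values. The part of endothelial cells in the Ephb4 difference was not tested.

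All 5 netrin receptors were tested, and 3 UNC5 receptors were higher in the brain tumors while 1 was lower. Unc5a, a repulsive netrin receptor of neurons, had the largest difference of any host guidance gene tested, with 81.1, 124 and 90.6 RPKM in brain, 0 in lung tumor 1 and 0.206 in lung tumor 2, the last from 1 read (6.48 ± 0.37, adjusted p = 0.00112). Unc5d stood at 15.1, 14.2 and 9.14 RPKM against 0 and 0.0599 (3.72 ± 0.42, adjusted p = 0.00341). Unc5c, at 13.0, 12.8 and 12.3 RPKM, varied little between brain tumors and exceeded lung values of 1.13 and 4.59 (1.99 ± 0.52, adjusted p = 0.0433, and 0.137 to 0.154 without any 1 brain tumor). Unc5b, the member of vessels, ran against them with 7.21, 3.67 and 6.61 RPKM in brain and 34.6 and 24.9 in lung (-2.19 ± 0.43, adjusted p = 0.0182). Without any 1 brain tumor its adjusted p was 0.0626 to 0.0855. Dcc was listed at 0 in both lung tumors and had 1.11, 1.44 and 1.24 RPKM in brain (adjusted p = 0.0598). The brain mean was at least 11.5-fold above the floor of 3 reads over the lung group, which rests mainly on lung tumor 2. In lung tumor 1 alone 3 reads correspond to 2.60 RPKM, above all 3 brain values, so absence of Dcc was not measurable there.

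Of 15 tested receptors of slits and semaphorins 2 passed, Robo1 and Plxnb3. Robo1 had 5.29, 8.61 and 7.75 RPKM in brain against 0 and 1.96 (2.23 ± 0.58, adjusted p = 0.0438), and Robo2, the highest ROBO gene by mean, 16.1, 33.1 and 23.2 against 0 and 10.6 (2.83 ± 1.03, adjusted p = 0.103). The groups stood apart for both genes. The Robo1 call was lost without any 1 brain tumor (adjusted p = 0.1002 to 0.146), and without lung tumor 2 the Robo2 difference was 4.60. Of 9 plexins Plxnb3, a receptor of oligodendrocyte lineage cells, was the one called, with 4.36, 4.39 and 3.46 RPKM against 0 and 0.106 (2.26 ± 0.37, adjusted p = 0.0110, and 0.0517 without brain tumor 2). Plxnb2 had the highest plexin mean, at 299, 218 and 130 RPKM in brain against 311 and 447 in lung (-0.87 ± 0.44, adjusted p = 0.205). Nrp1, the co-receptor of class 3 semaphorins and of vascular endothelial growth factor, had 15.7, 11.8 and 2.72 RPKM in brain against 39.2 and 94.6 in lung. Each lung tumor exceeded each brain tumor, and the difference of -2.74 ± 0.76 had an adjusted p of 0.0511. It passed with a filter of 5 RPKM, median-ratio scaling, the gene-length correction and voom. It did not pass with other pseudocounts, no filter, eBayes without trend, the replicate block or the human share as covariate. Nor did it pass with any 1 brain tumor left out. Without lung tumor 1 the difference was -3.37.

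Lung tumor 1 had few mouse reads, and 21 of the 67 tested host genes were at 0 there. What a 0 allows differs by gene: 3 reads in that library correspond to 14.1 RPKM for Unc5a, 17.0 for Efna3, 3.97 for Efnb3 and 2.77 for Slit1, each below all 3 brain values of its gene. For Epha6 they correspond to 55.1 RPKM, above its brain values, so its absence in lung tumor 1 was not measurable. These limits cover counting error only. Long genes read low in lung tumor 1: the longest 20% of tested mouse genes, which hold 33 of the 67 guidance genes, deviated there from their 5-library means by a median of -0.82 (log2), the guidance genes by -1.13 and the other genes by -0.37. Human genes of lung tumor 1 also read low, with medians of -0.53, -0.42 and -0.21 in the same order. Of 46 tested human guidance genes 16 were among the longest 20%. The part of gene length in the results was not tested beyond the length correction above. Of the 25 host calls 8 held under all 15 alternatives tried, those of Unc5a, Efnb3, Efna3, Slit1, Epha10, Epha5, Unc5d and Slit3. The alternatives include the fits that leave 1 lung library. All of these genes but Efna3 and Slit3 passed the main filter through the brain tumors alone, so their separation was set in part by it.

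The cancer cells showed no called difference. Of the 69 human guidance genes 46 passed the filter. By limma 0 of 46 had an adjusted p under 0.05, as did 0 with voom, against 0.00693% of the 14423 human genes tested, which is 1 gene. At an unadjusted p under 0.05 there were 9 of 46, against 10.5% of all tested genes. Brain and lung values did not overlap for 13 of 46 (28.3%, against 29.7%), and the median log2 difference was 0.05 against 0.09 over all tested genes. The fits without lung tumor 1 or without lung tumor 2 leave 1 lung library, and their calls are not counted here either.

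**Figure D2:**
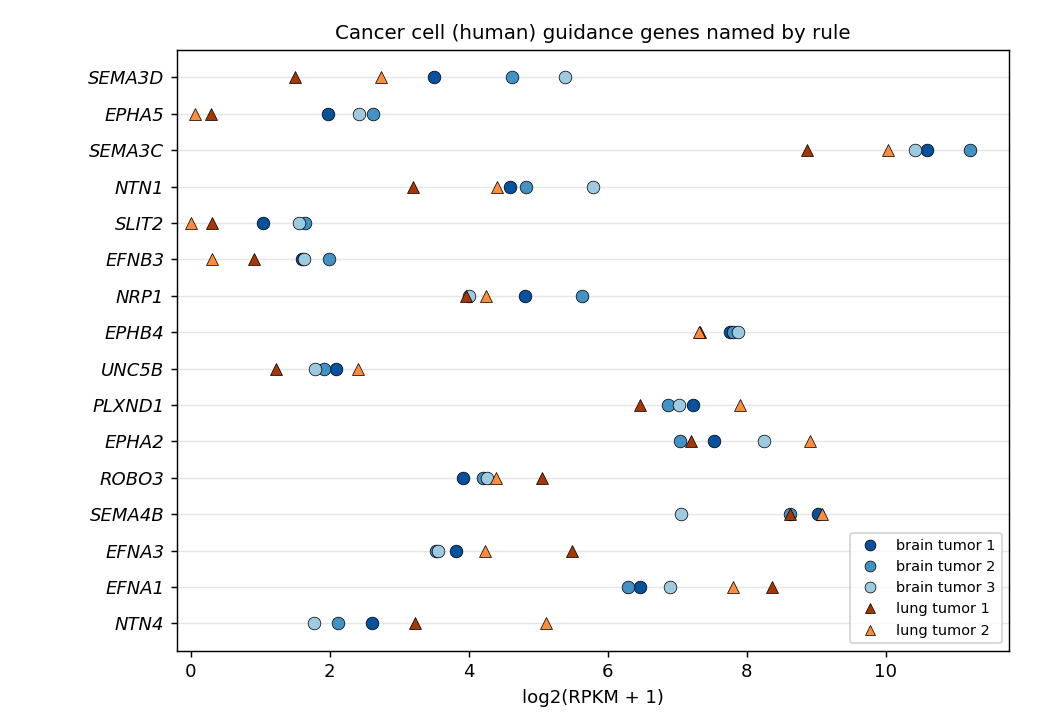
Cancer cell (human) guidance genes: the 8 with the lowest p and the highest of each family by mean RPKM, ordered by difference. The horizontal axis is log2(RPKM + 1), with 1 circle per brain tumor and 1 triangle per lung tumor; none passed the limma test, and brain and lung values lie apart for SEMA3C, SEMA3D, EPHA5, SLIT2, EFNB3, NTN1 and EPHB4 (brain above) and for ROBO3, EFNA1, EFNA3 and NTN4 (brain below).

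No human semaphorin passed, and SEMA3C had the highest deposited RPKM of the human guidance genes, on a scale whose gene lengths are not given. SEMA3C, a class 3 semaphorin that signals through neuropilins and plexins, had 1543, 2372 and 1370 RPKM in brain tumors 1, 2 and 3 against 465 and 1047 in the lung tumors, from 1808 to 9067 reads a library. All brain values lay above both lung values, with a difference of 1.29 ± 0.47 (limma adjusted p = 0.469). SEMA3A, the archetypal repellent, had 628, 944 and 336 RPKM against 204 and 372, and the groups overlapped (1.08 ± 0.49, adjusted p = 0.482). SEMA3D stood at 10.3, 23.7 and 40.7 RPKM against 1.83 and 5.70, without overlap (2.38 ± 0.63, adjusted p = 0.405). Without lung tumor 2, with 1 lung library left, the differences were 1.88 for SEMA3C and 3.00 for SEMA3D. The 3 genes lie close together on chromosome 7 of GRCh38: SEMA3C at chr7:80742538-80922389, SEMA3A at chr7:83955777-84492725 and SEMA3D at chr7:84995553-85250243. SEMA3E lies among them, at chr7:83363238-83649139, and had at most 1.05 RPKM in any library, too little for the test. SEMA4B, a transmembrane class 4 member, was the highest of the other classes, at 522, 392 and 132 RPKM in brain and 395 and 541 in lung (adjusted p = 0.665).

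None of the 5 human ephrins A passed. EFNA1 had 87.4, 77.2 and 119 RPKM in brain against 328 and 223 in lung, and EFNA3 had 13.1, 10.6 and 10.8 against 43.8 and 17.8. Neither gene's groups overlapped, and the limma differences were -1.53 ± 0.35 (adjusted p = 0.340) and -1.22 ± 0.46 (adjusted p = 0.470). EFNA4 had 28.7, 30.0 and 18.2 RPKM against 31.1 and 25.7 (-0.17 ± 0.38, overlapping). The 3 genes are neighbours on chromosome 1 of GRCh38, EFNA4 at chr1:155063740-155069553, EFNA3 at chr1:155078837-155087538 and EFNA1 at chr1:155127876-155134899. EFNA5, an ephrin of the brain's topographic maps, had 94.6, 120 and 139 RPKM against 90.3 and 79.8 (0.45 ± 0.32, adjusted p = 0.585). Its 3 brain values were all above both lung values. Without lung tumor 2, with 1 lung library left, the differences were -1.81 for EFNA1 and -1.84 for EFNA3.

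EPHA5 had the lowest p of the human genes. It read 2.93, 5.19 and 4.34 RPKM in the brain tumors, from 170, 229 and 73 reads, against 0.223 and 0.0388 in the lung tumors, from 10 reads and 1 read (2.17 ± 0.43, adjusted p = 0.304). The gene lies at chr4:65319567-65670489. Every brain value exceeded every lung value by far, and without lung tumor 2 the difference was 2.05. Both lung values were under 1 RPKM, so EPHA5 passed the filter through the brain tumors alone. The same gene was high in the host of the brain tumors, where 171, 649 and 640 mouse reads were found. Human reads per mouse read were thus highest in brain tumor 1 and lowest in brain tumor 3. Over the 3 brain tumors EPHA5 had 32.3 human reads per 100 mouse reads. Over 8 neuron markers the same ratio ran from 0.00587 for SYT1 to 56.1 for MAP2, with a median of 0.620. The part of host RNA in the human EPHA5 values was not tested. EPHA2, the EPHA gene with the highest human mean, had 184, 130 and 304 RPKM in brain and 146 and 482 in lung, overlapping (-0.45 ± 0.56, adjusted p = 0.761), with 0.41 without lung tumor 2. EPHB4, the highest B-type receptor, had 216, 223 and 235 RPKM against 160 and 158 (0.49 ± 0.30, adjusted p = 0.542).

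Further human ligands among the lowest p were of low or moderate level. NTN4 had 5.09, 3.35 and 2.42 RPKM in brain against 8.39 and 33.5 in lung (-2.003 ± 0.60, adjusted p = 0.446). SLIT2 had 1.06, 2.13 and 1.94 RPKM against 0.242 and 0 (1.26 ± 0.43, adjusted p = 0.463), and EFNB3 had 2.05, 2.98 and 2.11 against 0.882 and 0.243 (1.13 ± 0.44, adjusted p = 0.470). All 3 genes separated the groups, NTN4 below and the others above. SLIT2 and EFNB3 passed the filter through the brain tumors alone, so their separation was set in part by the filter. Human reads per 100 mouse reads over the brain tumors were 13.7 for SLIT2 and 7.62 for EFNB3, both of which the host expressed there; the part of host RNA in these human values was not tested. NTN1 had 23.1, 27.4 and 54.1 RPKM in brain against 8.18 and 20.2 in lung (1.27 ± 0.52, adjusted p = 0.473).

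Among the remaining human receptors PLXND1, a receptor of SEMA3E, had the highest plexin mean, at 149, 116 and 129 RPKM in brain, between lung values of 87.7 and 238 (-0.14 ± 0.44, and 0.57 without lung tumor 2). NRP1 had 27.0, 48.6 and 14.99 RPKM in brain against 14.6 and 18.0 (0.71 ± 0.50, adjusted p = 0.582). ROBO3 stood at 14.1, 17.5 and 18.3 RPKM against 32.4 and 20.1, without overlap (-0.60 ± 0.39, adjusted p = 0.559). UNC5B was low, at 3.28, 2.77 and 2.47 RPKM, between lung values of 1.35 and 4.31 (0.11 ± 0.49, and -0.47 without lung tumor 1), so no direction can be given. DCC, UNC5D and EPHA3 of the human genes and Ntn3 of the mouse genes were not analysed here. The symbol rule also took up 3 human and 1 mouse antisense RNAs, with at most 5 human and 10 mouse reads a library, and none of them was tested.

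The same gene could be compared between cancer cells and host within each tumor. For 45 guidance genes tested in both tables, the brain minus lung difference of the human gene was set against that of the mouse gene in limma. The differences differed for 19, with the human one higher for 7 and lower for 12, against 6.55% and 7.72% of the 10189 gene pairs tested. The median human minus mouse value was -0.28, against 0.14 over all pairs. Leaving out brain tumor 1, 2 or 3 left 10, 7 and 5 calls, and the shares of all pairs called in these fits are not given.

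**Figure D3:**
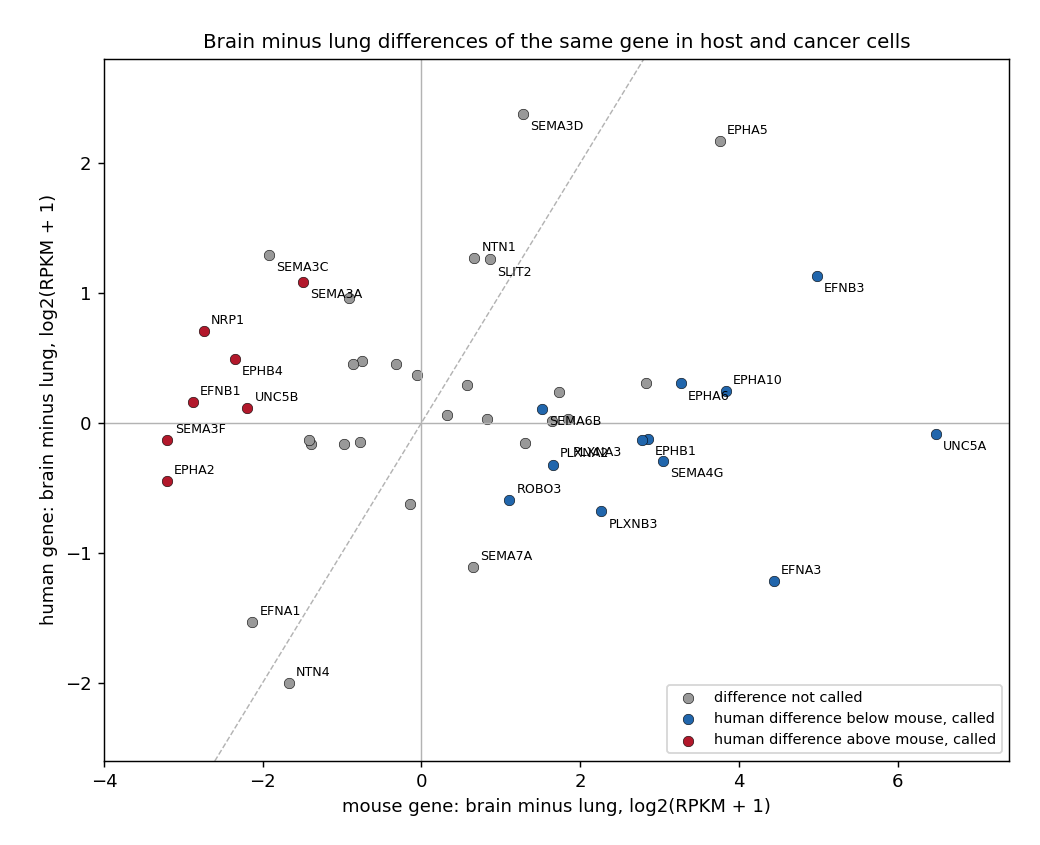
Brain minus lung difference of 45 guidance genes in the host (horizontal axis) and in the cancer cells (vertical axis), both on the log2(RPKM + 1) scale. Each point is a gene, red and blue points are the 19 whose human and mouse differences differed in limma, and the dashed line marks equal differences; host values spread along the horizontal axis to 6.48 for UNC5A while most human values stay near 0.

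UNC5A showed the largest contrast: human values of 2.52, 2.11 and 1.32 RPKM in brain and 1.38 and 3.09 in lung gave a difference of -0.09, against 6.48 in the host (human minus mouse -6.57 ± 0.46, adjusted p = 0.00249). EFNA3 went in opposite directions, -1.22 in the cancer cells and 4.44 in the host (-5.66 ± 0.77, adjusted p = 0.00891, and 0.0575 without brain tumor 3). EFNB3 had 1.13 in the cancer cells against 4.98 in the host (-3.85 ± 0.49, adjusted p = 0.00723). Conversely NRP1 had 0.71 in the cancer cells against -2.74 in the host (3.45 ± 0.55, adjusted p = 0.0137), and SEMA3F -0.14 against -3.20 (3.06 ± 0.56, adjusted p = 0.0193). Without brain tumor 2 or 3 the adjusted p was 0.0559 and 0.0673 for NRP1 and 0.0763 and 0.0804 for SEMA3F. For EPHA5, with 2.17 in the cancer cells and 3.76 in the host, the human minus mouse value of -1.59 had an adjusted p of 0.0502. For EFNA1, with -1.53 and -2.13, it was 0.60 ± 0.34 (adjusted p = 0.274).

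Ligand and receptor could come from the same or from different species. Of the 65 symbols found in both species, 14 had a larger share of human reads than the library as a whole in all 3 brain tumors, 40 had a smaller share, and 11 were mixed. The 14 on the human side were EFNA1, EFNA4, EFNA5, EPHA1, EPHA2, EPHB4, NTN1, PLXNA3, ROBO3, SEMA3A, SEMA3C, SEMA4B, SEMA4C and SEMA6B. PLXNA3 was on it by a small margin, with human shares of 76.7%, 57.1% and 22.8%. The list was made from the values and carries no test. These shares were not computed over all genes found in both species. The counts of genes and pairs by side are thus no result particular to guidance genes. All 3 slits, all 3 B ephrins and all 3 UNC5 receptors in both tables were on the mouse side, with 5 of 8 EPHA receptors.

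**Figure D4:**
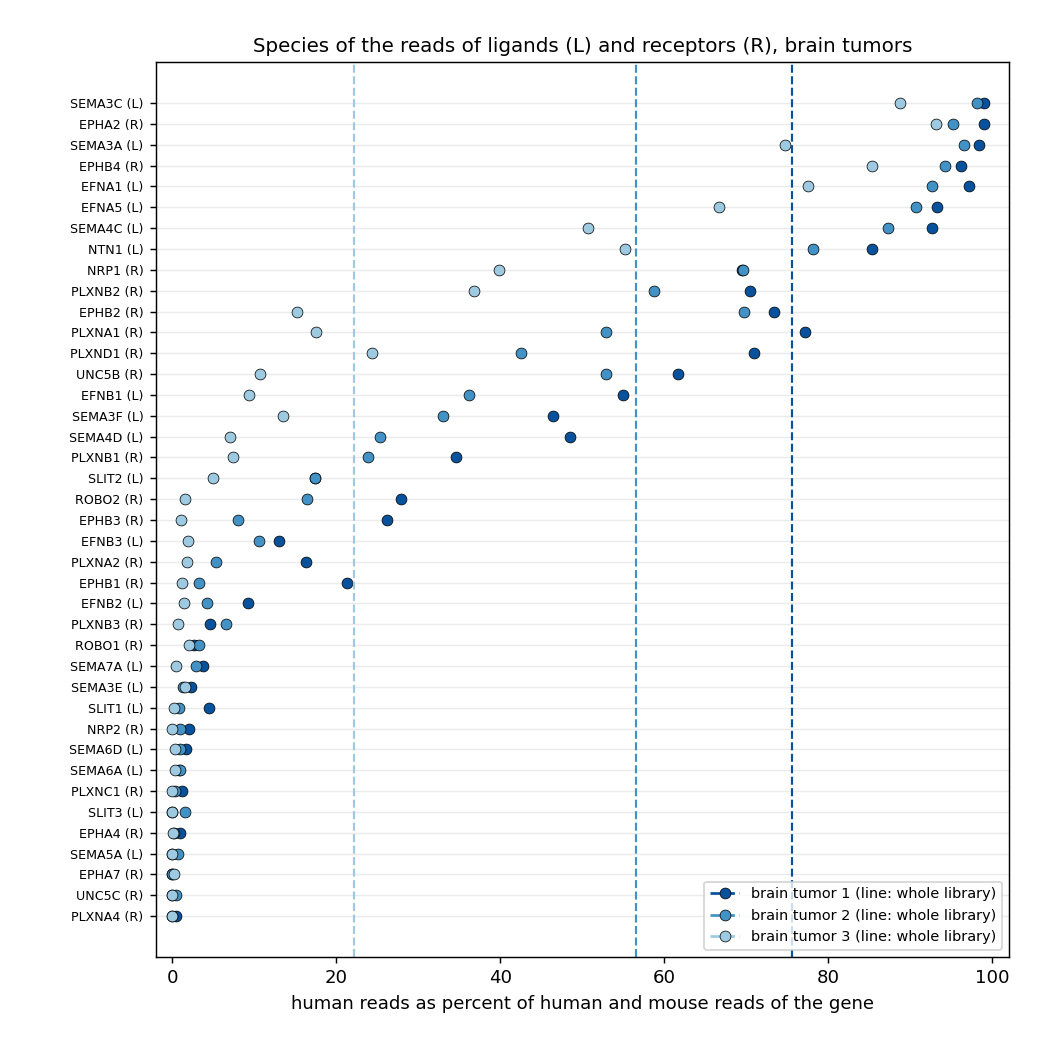
Human reads as percent of the human and mouse reads of each ligand (L) and receptor (R) of the listed pairs in the 3 brain tumors. Each circle is 1 tumor and each dashed line is the human share of that whole library, 75.6%, 56.5% and 22.1%; SEMA3C, EPHA2, SEMA3A, EPHB4, EFNA1, EFNA5, SEMA4C and NTN1 lie right of their library's line in every tumor.

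Read as 26 ligand and receptor pairs, 12 had both genes on the mouse side in the brain tumors, such as EFNB3 with EPHB1, SLIT1 with ROBO2 and SEMA4D with PLXNB1. EFNA1 with EPHA2 was the pair with both genes on the human side. In brain tumors 1, 2 and 3 EFNA1 had 972, 653 and 382 human reads against 29, 52 and 111 mouse reads, and EPHA2 1327, 714 and 635 against 14, 36 and 47. In 4 pairs the ligand was on the human and the receptor on the mouse side: EFNA5 with EPHA4 and with EPHA7, and NTN1 with UNC5B and with UNC5C. EFNA5 had 641, 617 and 272 human reads against 46, 63 and 136 mouse reads, while EPHA4 had 3, 2 and 1 human reads against 333, 875 and 1732 mouse reads. EPHA7 had 0, 0 and 1 human reads against 71, 271 and 439, and UNC5C 0, 1 and 0 against 135, 241 and 407. UNC5B was less clear, with 188, 121 and 41 human reads against 117, 108 and 341 mouse reads. Its human reads outnumbered its mouse reads in brain tumors 1 and 2, at shares below those of the libraries. EFNB2 with EPHB4 was the reverse case, with a host ligand (368 mouse and 16 human reads in brain tumor 2) and a cancer cell receptor (114 mouse and 1840 human reads). SEMA3A and SEMA3C were on the human side while their co-receptor NRP1 was shared, with 585, 801 and 94 human reads against 257, 350 and 142 mouse reads. Human and mouse reads of a gene may cover different lengths, so these are read numbers and not levels.

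By the test between organs, all 26 pairs could be tested in the mouse table, and both genes were called in 3, 1 gene in 12 and 0 genes in 11. EFNB3 and EPHB1 were both higher in the brain tumors, EFNA1 and EPHA2 both lower, and SLIT3 was lower while ROBO1 was higher. Among human genes, 9 pairs could be tested and none had a called gene.

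Other genes of guidance signalling were also read in both species. Their list held further surface receptors and ligands, adhesion partners, collapsin response mediators, cytoskeletal regulators and kinases. In the host 20 of 64 tested genes were higher in the brain tumors, against 14.3% of all tested mouse genes, and 3 were lower, against 8.12%. The 4 with the largest differences were Cntn2, an axonal adhesion protein (67.3, 52.9 and 62.9 RPKM against 0 and 0.104; 5.88 ± 0.35, adjusted p = 0.00112), Crmp1, which relays semaphorin signals (5.42 ± 0.82, adjusted p = 0.00840), L1cam (4.88 ± 1.32, adjusted p = 0.0479) and Lingo1 (4.83 ± 0.35, adjusted p = 0.00124). Rras, Mical1 and Rhoa were the 3 that fell, by 2.83, 2.04 and 1.24 on the log2 scale, and were named after their values were seen. In the cancer cells 0 of 56 passed in limma, with 13 at an unadjusted p under 0.05 (10.5% over all tested human genes) and 0 with voom. Calls in the fits without lung tumor 1 or 2 are not counted, as these fits leave 1 lung library. The neuron markers given above moved with the host list in the same libraries; their part in it was not tested.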

How the data were processed

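RNA sequencing of 5 tumors, 3 brain and 2 lung, was analysed from 2 deposited tables of RPKM, 1 human (hg38, GRCh38) and 1 mouse (mm10, GRCm38), builds per the submitters' processing notes. The RPKM were made by the authors. Not given in the sources used here are the aligner, the read counter, its use of strand, the gene lengths and how human and mouse reads were told apart. Of the per-sample columns 0 were left unmapped. Whole reads were recovered from RPKM, within 3.3e-10 reads, up to a common divisor for each gene; for 4393 human and 3995 mouse genes found in 1 library the read number is not fixed.

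Genes with RPKM of at least 1 in at least 2 libraries were fitted with limma 3.58.1 (R 4.3.3) on log2(RPKM + 1), which understates changes of low genes, as brain minus lung with a trended eBayes, 2-sided tests and Benjamini-Hochberg adjustment within each table (threshold 0.05). Human minus mouse differences were fitted the same way within libraries. Fits and read recovery were tested on simulated data. Brain against lung was compared in all 5 libraries; alternatives were other pseudocounts, filters, scaling, eBayes settings, a replicate block, a length correction, voom, the human share as covariate and each library left out. Named genes are up to 12 called in each direction, the highest of each family, in the human table the 8 of lowest p, the listed pairs and up to 4 called signalling genes. Members, lists and rules were chosen with earlier results of these data known. Positions are from RefSeq (GRCh38.p14), which matched 69 of 69 human members.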

Additional observations from a re-analysis of the deposited data

Results flagged for a closer look

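For 19 of 45 guidance genes the brain minus lung difference of the human gene differed from that of the mouse gene in limma's test of the difference itself (adjusted p under 0.05 over 10189 gene pairs). On the log2 scale the human minus mouse value was below 0 for 12. Among ligands these were EFNA3 (-5.66), EFNB3 (-3.85), SEMA4G (-3.33) and SEMA6B (-1.41). Among receptors they were UNC5A (-6.57), EPHA10 (-3.59), EPHB1 (-2.97), EPHA6 (-2.96), PLXNB3 (-2.95), PLXNA3 (-2.91), PLXNA2 (-1.97) and ROBO3 (-1.70). It was above 0 for 7: the ligands SEMA3F (3.06), EFNB1 (3.04) and SEMA3A (2.58), and the receptors NRP1 (3.45), EPHB4 (2.85), EPHA2 (2.76) and UNC5B (2.31). Of the 19, 4 passed under every alternative in which they could be fitted, namely UNC5A, EPHA10, EFNB3 and SEMA4G, while SEMA6B and UNC5B passed in 4 alternatives each. Brain or lung tissue around the cancer cells differs between the organs in the mouse table, as its marker genes show, and the part of host cell types in these differences was not tested.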

How the results depend on the processing

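The replicate numbers of brain and lung tumors share no stated source. Deviations of same-numbered tumors had correlations of -0.082 and 0.059 in human and 0.035 and 0.050 in mouse genes. With 2 lung tumors the deviations of lung tumor 1 mirror those of lung tumor 2, so these values cannot show whether tumors were paired. With the replicate block 1 human guidance gene, EPHA5 (2.13), was called, with 11 mouse genes, 14 mouse signalling genes and 11 human minus mouse differences. The last count was also 11 with a filter of 5 RPKM and 12 with the share of human reads as covariate. Leaving out 1 library in turn gave 0 to 6 called human and 10 to 44 called mouse guidance genes, 0 to 17 human and 10 to 43 mouse signalling genes, 5 to 22 differences, and median log2 differences of -0.22 to 0.41 in human and 0.22 to 1.47 in mouse guidance genes; the cause was not tested, apart from the fewer samples. Direction changed for human UNC5B with the gene-length correction (-0.44), and with the human share as covariate (-0.030). With 1 library left out it changed for UNC5B (-0.47 to 0.70), human PLXND1 (-0.86 to 0.57), human EPHA2 (-1.31 to 0.41) and mouse Sema3c (-4.64 to 0.79), between the fits without lung tumor 1 and lung tumor 2. No called gene changed direction. The median of all tested mouse genes moved from 0.08 to 0.22 with median-ratio scaling, to -0.07 with the length correction and to -0.15 with voom, where the guidance genes' median was 0.99, 0.50 and 0.41; the human median of all genes moved from 0.09 to -0.03 with median-ratio scaling and to -0.01 with the length correction. Voom was not run for the human minus mouse difference. A lone library left in the lung group was assumed to vary like the brain tumors. Depth limits the host of lung tumor 1 most, with 231156 mouse reads. Gene lengths that are not given limit comparisons between genes, and 2 lung tumors limit every test.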
